A study of Mus musculus with 16 samples.

Results

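The genes of the proteasome, with the immunoproteasome subunits set beside the constitutive ones, were measured in 4 sorted subsets of CD8 T cells from leukemic mice. A gene was taken if its probe set carried exactly 1 symbol of the Psma, Psmb, Psmc, Psmd, Psme, Psmf or Psmg series, and where a gene had several such probe sets, the brightest over the 16 arrays stood for it. This gave 49 of 22180 genes. Of these, 47 are proteasome genes. The others match the symbol rule but were not counted as proteasome genes: Psmc3ip encodes a meiotic recombination factor and Psme3ip1 a protein that binds the activator subunit Psme3. Both probe sets that name Psma4 list other genes as well, so that subunit was not analysed here. The RNA came from spleens of female mice of the C57BL/6 strain (written C56BL/6 in the strain label), which had received murine chronic lymphocytic leukemia (CLL) cells from Eµ-TCL1 mice, in which a B-cell-directed transgene drives the leukemia. All 4 subsets came from such mice 6 weeks after the transfer, and mice without leukemia were not analysed here. CD8 T cells (Lin- TCRb+ CD8+) were sorted as PD-1hi effector cells (CD127low CD44int-hi PD-1hi), PD-1int effector cells (CD127low CD44int-hi PD-1int), memory cells (CD127hi CD44hi) and naive cells (CD127hi CD44low). Each subset has 4 whole-transcript arrays, named below by subset and replicate number. Whether the arrays of a subset come from different mice is not stated in the labels, and the p-values therefore speak only of the spread among these 16 samples.

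The proteasome cuts ubiquitin-tagged proteins into peptides. Its barrel-shaped 20S core is made of an alpha ring and a beta ring, each present as a pair, and 3 of the beta subunits, encoded by Psmb5, Psmb6 and Psmb7, carry the cutting sites. The 19S cap, built from ATPases (Psmc genes) and non-ATPase subunits (most Psmd genes), recognises, unfolds and feeds the substrate. Interferon gamma induces Psmb8, Psmb9 and Psmb10, which take the places of Psmb5, Psmb6 and Psmb7 in newly built cores, and the activator PA28, made of Psme1 and Psme2. Lymphocytes hold much immunoproteasome already at rest, and its peptides feed MHC class I presentation through the transporter TAP.

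The bases upstream of 4 catalytic genes are shown because their expression is compared most closely in what follows. They are from RefSeq (build GRCm38.p6), run 5′ to 3′ on the strand of the gene named first and end at the base before its start. Psmb9 and Tap1, which encodes a TAP chain, start 225 bases apart on opposite strands, and in the RefSeq gene order of chromosome 17 they stand in the row H2-DMb1, Psmb9, Tap1, Psmb8, Tap2 and H2-Ob. The first sequence is all of the DNA between those starts (chr17:34187331-34187555, minus strand), with a CCAAT box match on the opposite strand in capitals. The second precedes Psmb8 (chr17:34197945-34198194, plus strand), with a GAS-type match in capitals, the kind of palindrome that STAT factors bind. The last sequences precede Psmb5 (chr14:54617996-54618055, minus strand) and Psmb6 (chr11:70525297-70525356, plus strand), with a match to the core of the antioxidant response element, which NRF factors bind, in capitals.
Psmb9 to Tap1: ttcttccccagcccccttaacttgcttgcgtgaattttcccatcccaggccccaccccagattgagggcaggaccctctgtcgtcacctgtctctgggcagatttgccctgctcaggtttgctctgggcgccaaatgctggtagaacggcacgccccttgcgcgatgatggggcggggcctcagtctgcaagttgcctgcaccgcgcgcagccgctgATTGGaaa
Psmb8: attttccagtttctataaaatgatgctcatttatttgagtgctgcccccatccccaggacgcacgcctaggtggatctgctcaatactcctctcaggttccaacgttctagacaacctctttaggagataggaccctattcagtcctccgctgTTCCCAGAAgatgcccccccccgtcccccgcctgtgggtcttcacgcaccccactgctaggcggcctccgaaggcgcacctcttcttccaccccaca
Psmb5: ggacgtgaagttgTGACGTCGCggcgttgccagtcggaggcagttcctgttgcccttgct
Psmb6: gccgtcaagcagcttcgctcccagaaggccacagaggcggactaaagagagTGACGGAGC

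Promoter windows, from 250 bases before to 50 after a start, were found in the RefSeq table for 41 of the 49 genes, as 45 windows, but not for Psma8, Psmb1, Psmb2, Psmb7, Psmc3, Psmd3, Psmd7 and Psmg2. Motifs were searched on both strands. The ISRE-type repeat, the kind that IRF factors bind, was in 11.1% of the 45 windows (Psmb3, Psmd4, Psmd9, Psme1 and Psmg4), against 3.44% of all 32851 windows. The GAS-type palindrome TTCNNNGAA was in 6.67% (Psmb8, Psmd2 and Psmg1), against 8.3% of all windows. The antioxidant response core TGACNNNGC was in 13.3% (Psmb5, Psmb6, Psmc6, Psmd12, Psmd9 and Psme4), against 12.4%. The CCAAT box CCAAT was in 35.6%, against 37.4%. Except for the ISRE-type repeat, the shares lay near those of all windows, and no test was made of any of them. A match describes letters only.

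Values are log2 expression per probe set, between 2.35 and 14.13 over the whole file, with array medians of 6.39 to 6.49. The sort markers followed the gates: Pdcd1, which encodes PD-1, averaged 11.40 ± 0.15 in PD-1hi, 10.12 ± 0.31 in PD-1int, 7.10 ± 0.10 in memory and 6.80 ± 0.30 in naive arrays (log2, SD, n = 4 each). Il7r, which encodes CD127, averaged 4.91, 7.49, 12.57 and 12.97 in the same order. Cd44 averaged 7.93, 8.69, 8.99 and 6.07. Both genes were lower in PD-1hi than in PD-1int cells, though these subsets share the CD127 and CD44 gates. The mean log2 level of 6 CD8 T-cell genes lay between 12.25 and 12.41 on all 16 arrays; against naive cells, Cd3e and Cd3g rose in PD-1hi (0.37 and 0.34), Cd3e and Cd5 in PD-1int cells (0.22 and 0.55), Cd8b1 fell in both (-0.33 and -0.32), and none passed in memory cells. Of 12 B-cell and CLL markers measured, 1 rose and 2 fell in each effector subset against naive cells (Cd22 up, Cd79b and Bank1 down). In memory cells Cd22 rose and none fell. Of all genes, 13.4% rose and 13.7% fell in PD-1hi, 11.9% and 10.8% in PD-1int, and 6.7% and 5.02% in memory against naive cells. The rise of Cd22 was 0.845 in PD-1hi, 1.74 in PD-1int and 3.22 in memory against naive cells. Its means were 7.13 in PD-1hi, 8.03 in PD-1int, 9.50 in memory and 6.28 in naive arrays. The defining Cd79a and Ms4a1 did not pass the test in any comparison and averaged 5.32 to 6.32 per subset. The list's mean per array was 6.26 to 6.55 in PD-1hi, 6.34 to 6.70 in PD-1int, 6.47 to 6.98 in memory and 6.36 to 6.76 in naive arrays. In each subset the array numbered 4 had the highest such mean, and H2-Aa, an MHC class II gene, read 7.06, 7.07, 7.26 and 7.25 on those arrays of PD-1hi, PD-1int, memory and naive cells, against at most 6.45, 6.48, 6.06 and 6.49 on the others. Of 11 myeloid and dendritic markers, 4 rose in each effector subset against naive cells (Itgax, Itgam, Cd68 and Cst3, by 2.40, 1.03, 3.05 and 0.57 in PD-1hi and by 4.02, 1.55, 2.86 and 0.49 in PD-1int cells) and 3 in memory cells (Itgax, Cst3 and Fcer1g, by 2.93, 0.42 and 0.70), and the list's mean was 7.10 to 7.34 in PD-1hi, 7.24 to 7.52 in PD-1int, 6.81 to 6.87 in memory and 6.35 to 6.57 in naive arrays; Lyz2 and Csf1r averaged 5.90 to 6.58 per subset, and of their comparisons only that of Lyz2 in PD-1hi against memory cells passed the test (higher). Of the 2 erythroid and platelet markers measured, Ppbp rose by 1.06 in PD-1hi against naive cells. Of the CD4 T-cell markers, Zbtb7b rose by 0.28 in PD-1hi, 0.26 in PD-1int and 0.29 in memory against naive cells, and Cd4 averaged 5.95 to 6.05 per subset. The part of other cells in the results was not tested. In sorted bulk samples, fewer cells of a kind and less RNA per cell cannot be told apart.

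Of 30 constitutive 20S and 19S genes, 24 were called higher in PD-1hi, 21 in PD-1int and 15 in memory than in naive cells. None of the 30 was called lower. Genes were called changed at a limma adjusted p under 0.05 over all 22180 genes. In PD-1hi against naive cells, 30 of the 49 genes changed (61.2%), beside 27.1% of all genes tested. Of them 29 rose (59.2%), beside 13.4% of all genes, and 1 fell, beside 13.7%. In PD-1int against naive cells 25 changed, beside 22.7%: all 25 rose (51%), beside 11.9%, and 0 fell, beside 10.8%. In memory against naive cells 18 changed, beside 11.7%: 17 rose (34.7%), beside 6.7%, and 1 fell, beside 5.02%. The median log2 difference of the 49 genes was 0.25, 0.25 and 0.21 in those comparisons, where that of all genes was -0.01, -0.03 and -0.02. These comparisons share the naive arrays. The shares of all genes given here and in the next paragraph also stand beside the counts of smaller gene groups below.

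The effector subsets differed less from memory cells and hardly from each other. For PD-1hi against memory cells, 15 genes changed, beside 21.9% of all genes: 13 rose (26.5%), beside 10.8%, and 2 fell, beside 11.1%. For PD-1int against memory cells, 8 genes changed (16.3%), beside 16.2%, a share near that of all genes: 6 rose, beside 8.49%, and 2 fell, beside 7.66%. Between PD-1hi and PD-1int cells 1 gene changed (2.04%), beside 3.31%: 0 rose, beside 1.37%, and 1 fell, beside 1.94%. At an unadjusted limma p under 0.05 there were 3. The median log2 differences were 0.13, 0.10 and 0.03 in these comparisons, where those of all genes were 0.01, 0.00 and 0.01. The standard error of a log2 difference had a median of 0.0779 over the 49 genes and of 0.104 over all genes.

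**Figure D1:**
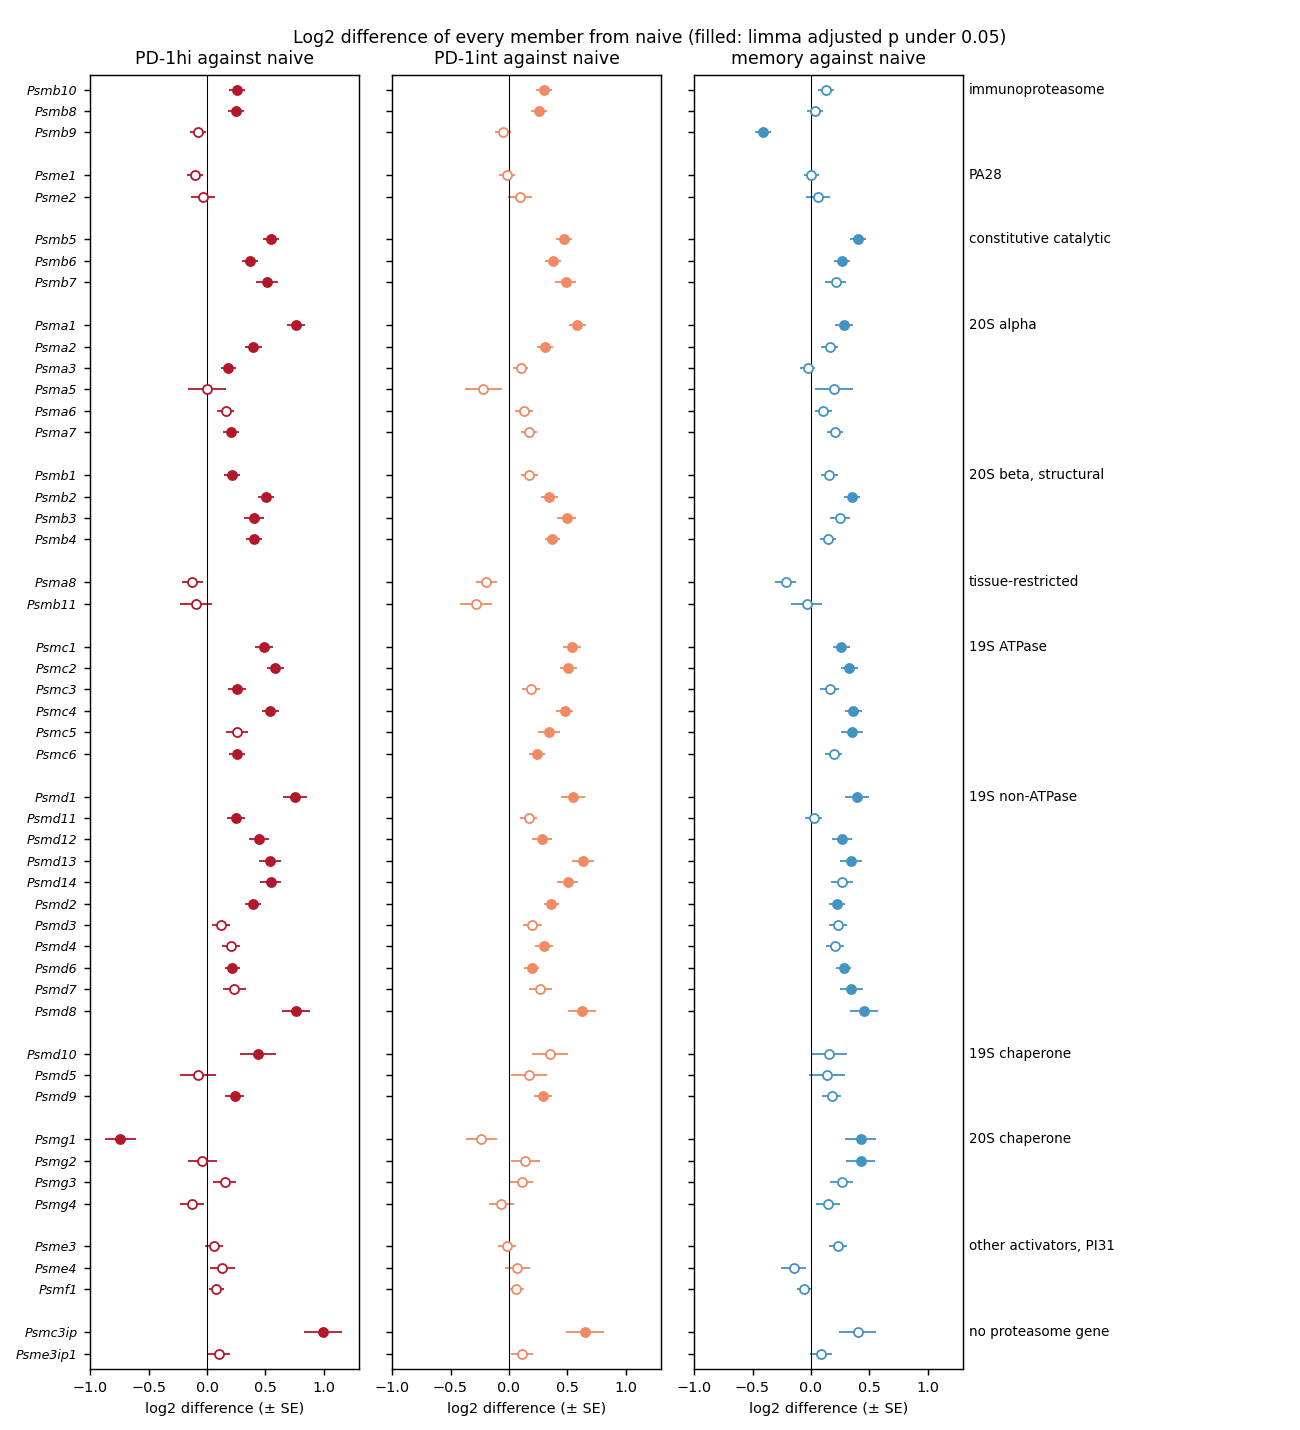
The log2 difference from naive cells (x axis, with bars of 1 standard error) is drawn for each gene, ordered by role, for PD-1hi, PD-1int and memory cells in panels from left to right. Filled points passed the adjusted p of 0.05; most 20S and 19S points lie to the right of 0 in all 3 panels, the filled point to the left of 0 is Psmg1 in PD-1hi and Psmb9 in memory cells.

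Several of these counts fell when single arrays were left out. Such fits hold fewer arrays, and the share of all genes called in them is not given here. Some calls were lost while the difference grew and others while it shrank. A lower count alone therefore does not show that calls rested on the array left out. In memory against naive cells 18 genes changed with all arrays, but 9 without naive 3 or memory 4, 10 without memory 1 and 11 without naive 2, and 6 kept their call in all 8 fits that left out 1 array (Psmb2, Psmb5, Psmb9, Psmc2, Psmc4 and Psmd6). For PD-1hi against memory cells the count of 15 became 6 without PD-1hi 4 and 9 without memory 3. For PD-1int against memory cells the count of 8 became 4 without memory 1, PD-1int 3 or PD-1int 4, and 5 without memory 3. In contrast, 22 of the 30 calls in PD-1hi and 22 of the 25 in PD-1int against naive cells held in all 8 such fits. Without the 4 arrays numbered 4, which had the highest means of B-cell and CLL markers, 26, 25 and 11 genes changed against naive cells (PD-1hi, PD-1int and memory), 5 and 4 against memory cells (PD-1hi and PD-1int) and 0 between the effector subsets; this omission was chosen after seeing the data.

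Mitosis genes and the constitutive subunits had the same order of subset means. All 19 mitosis genes measured were higher in both effector subsets than in naive cells, and 18 of 19 rose in memory against naive cells. Their mean log2 level, relative to the mean of all arrays, was 1.57 ± 0.17 in PD-1hi, 0.76 ± 0.21 in PD-1int, -0.38 ± 0.63 in memory and -1.95 ± 0.11 in naive arrays (SD, n = 4). The mean of 30 constitutive 20S and 19S genes, on the same relative scale, was 0.14 ± 0.06 in PD-1hi, 0.10 ± 0.02 in PD-1int, 0.00 ± 0.04 in memory and -0.24 ± 0.07 in naive arrays. Both orders of subsets were the same. Among the memory arrays, mitosis genes stood at 0.25 in memory 1 and 0.06 in memory 4 but at -0.92 in both memory 2 and memory 3, where the constitutive genes stood at 0.01, 0.04, 0.02 and -0.05 in memory 1, 4, 2 and 3. Over the subsets the mitosis means ranged more widely in log2 than the constitutive means, so these spreads are not on like scales. In naive 4, 1, 2 and 3, mitosis genes stood at -1.82, -1.90, -2.01 and -2.06. The constitutive genes stood at -0.15, -0.24, -0.29 and -0.29 there, the same ranking. In PD-1hi and in PD-1int cells the arrays ranked differently in the lists. The part of cell division in the proteasome differences was not tested.

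Among the catalytic subunits of the immunoproteasome, Psmb8 and Psmb10 were higher in effector cells than in naive cells, and Psmb9 was lower in memory cells than in every other subset. Psmb8 encodes the immunoproteasome's chymotrypsin-like subunit (LMP7). It read 10.85, 10.79, 10.83 and 10.94 in PD-1hi arrays, 10.87, 10.83, 10.84 and 10.88 in PD-1int, 10.61, 10.69, 10.55 and 10.68 in memory and 10.46, 10.66, 10.62 and 10.66 in naive arrays (log2). Every effector array lay above every memory and naive array, and memory and naive arrays overlapped. The log2 difference from naive was 0.25 ± 0.07 (SE) in PD-1hi (1.19-fold, adjusted p = 0.00881) and 0.25 ± 0.07 in PD-1int cells (1.19-fold, adjusted p = 0.0101). In memory cells it was 0.03 ± 0.07 (adjusted p = 0.859). Against memory cells Psmb8 was higher by 0.22 in each effector subset (adjusted p = 0.0272 for PD-1hi and 0.0337 for PD-1int). Those 2 calls were not firm: the PD-1hi one was lost without memory 1, memory 3, PD-1hi 1 or PD-1hi 4 (adjusted p up to 0.0897), and the PD-1int one without memory 1, memory 3 or any single PD-1int array (up to 0.107).

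Psmb10 encodes the trypsin-like subunit of the immunoproteasome (MECL-1). Its values were 12.09, 12.19, 12.23 and 12.29 in PD-1hi arrays, 12.23, 12.22, 12.25 and 12.26 in PD-1int, 12.04, 12.13, 12.05 and 12.06 in memory and 11.83, 11.99, 11.92 and 12.04 in naive arrays. Effector and naive arrays did not overlap. Memory arrays lay between and overlapped naive and PD-1hi arrays. Psmb10 rose by 0.26 ± 0.07 in PD-1hi (adjusted p = 0.00718) and by 0.30 ± 0.07 in PD-1int against naive cells (adjusted p = 0.00315), and these calls held whichever array was left out. The other differences did not pass: 0.13 ± 0.07 in memory against naive cells (adjusted p = 0.309), and 0.13 ± 0.07 in PD-1hi and 0.17 ± 0.07 in PD-1int against memory cells (adjusted p = 0.209 and 0.11).

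Psmb9 encodes the immunoproteasome subunit LMP2, which takes the place of the caspase-like subunit. Its arrays read 11.88, 11.95, 11.87 and 11.92 in PD-1hi, 11.88, 11.98, 11.89 and 11.98 in PD-1int, 11.54, 11.63, 11.48 and 11.65 in memory and 11.87, 12.01, 12.02 and 12.04 in naive cells. The 4 memory arrays lay below all 12 others, which overlapped one another. Psmb9 fell by 0.41 ± 0.07 in memory against naive cells (0.754-fold, adjusted p = 0.000401). It was higher by 0.33 ± 0.07 in PD-1hi against memory cells (1.26-fold, adjusted p = 0.00128) and by 0.35 ± 0.07 in PD-1int against memory cells (1.28-fold, adjusted p = 0.00104). All 3 calls held whichever array was left out. Against naive cells the effector differences were -0.08 ± 0.07 in PD-1hi and -0.05 ± 0.07 in PD-1int cells (adjusted p = 0.464 and 0.665). Psmb9 was the only one of the 49 genes called lower in memory than in naive cells.

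**Figure D2:**
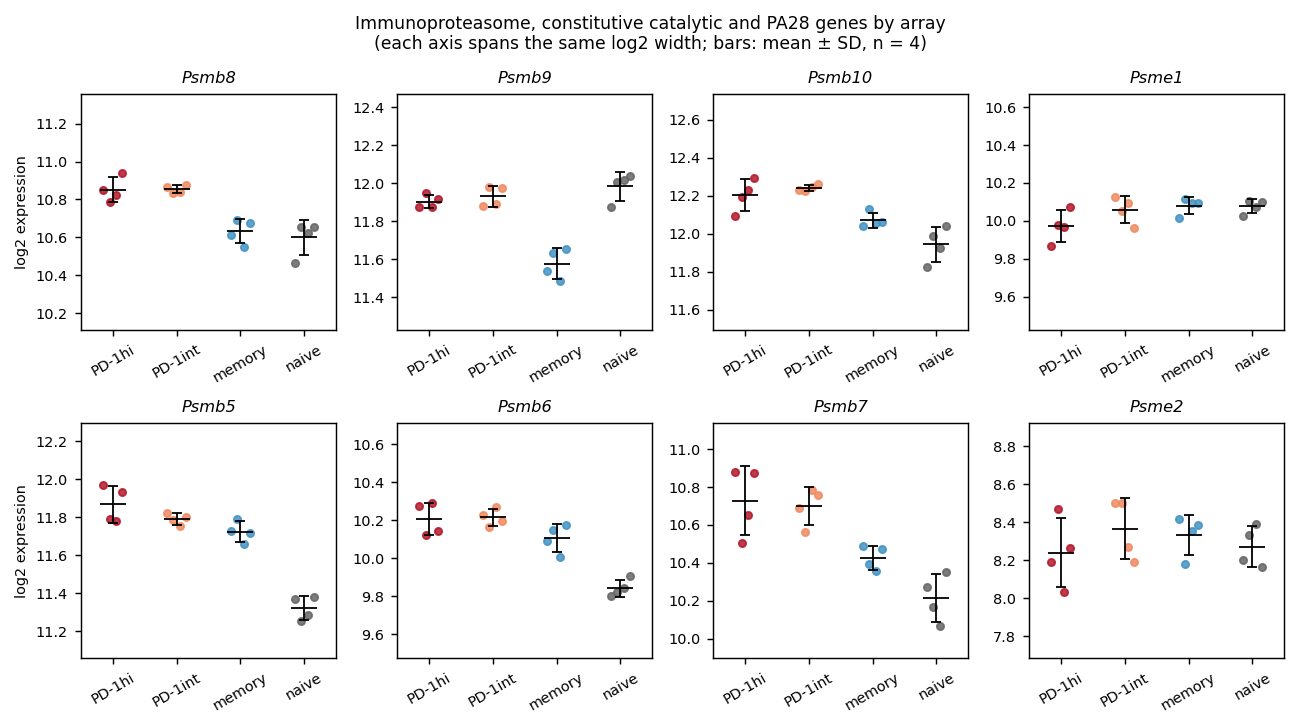
Each panel gives 1 catalytic subunit or PA28 gene, with log2 expression on the y axis, a point per array and bars for mean ± SD (n = 4) in PD-1hi, PD-1int, memory and naive cells. Psmb5, Psmb6 and Psmb7 lie above their naive means in the 3 antigen-experienced subsets, and Psmb8 and Psmb10 in the effector subsets. Psmb9 lies below its naive mean in memory cells, at a mean difference of -0.41.

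Genes beside Psmb9 on chromosome 17, and others of MHC class I processing, showed a low point in memory cells as well. Tap1, whose start faces that of Psmb9 across the 225 bases printed above, averaged 12.45 ± 0.04 in PD-1hi, 12.53 ± 0.06 in PD-1int, 12.04 ± 0.05 in memory and 12.54 ± 0.09 in naive arrays (log2, SD, n = 4 each). Its 4 memory arrays lay below the other 12. Tap1 fell by 0.50 ± 0.07 in memory against naive cells (adjusted p = 4.39e-05) and was higher by 0.41 in PD-1hi and by 0.49 in PD-1int against memory cells (adjusted p = 0.000128 and 3.78e-05). Tap2, the other TAP chain, fell by 0.57 ± 0.09 in memory against naive cells (adjusted p = 0.000203) and was higher by 0.59 in PD-1hi and by 0.66 in PD-1int against memory cells. Psmb8 lies between Tap1 and Tap2, yet its memory and naive arrays overlapped.

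Of 14 genes of MHC class I processing measured, 2 rose and 5 fell in memory against naive cells, beside 6.7% and 5.02% of all genes. Their median log2 difference was -0.09. The falls were Tap1, Tap2, Npepps (an aminopeptidase, by 0.49), Nlrc5 (the transactivator of MHC class I genes, by 0.37) and Tapbp (tapasin, which bridges TAP and MHC class I, by 0.32; named after its value was seen). The rises were Lap3, an aminopeptidase (0.56), and Canx, a chaperone (0.22). Against memory cells 7 rose and 2 fell in each effector subset, with medians of 0.21 in PD-1hi and 0.25 in PD-1int cells. Of all genes, 10.8% rose and 11.1% fell in PD-1hi, and 8.49% and 7.66% in PD-1int against memory cells. Nlrc5 was higher by 0.49 in PD-1hi and by 0.66 in PD-1int against memory cells (adjusted p = 8.05e-05 and 6.64e-06), while Lap3 fell by 1.25 and by 1.11. Against naive cells 5 rose and 3 fell in PD-1hi, beside 13.4% and 13.7% of all genes. In PD-1int against naive cells 7 rose and 3 fell, beside 11.9% and 10.8%. Npepps and Erap1, both peptide trimmers, were among the falls of both subsets.

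The interferon gamma genes were split. Of 10 measured, 4 rose and 2 fell in PD-1hi and likewise in PD-1int against naive cells, and 2 rose and 3 fell in memory against naive cells. Of all genes, 13.4% rose and 13.7% fell in PD-1hi, 11.9% and 10.8% in PD-1int, and 6.7% and 5.02% in memory against naive cells. Ifng itself rose by 4.88 ± 0.20 in PD-1hi and by 3.89 ± 0.20 in PD-1int against naive cells (adjusted p = 1.79e-12 and 5.19e-11); in memory cells its difference was 0.60 (adjusted p = 0.0568). Ifngr2, a chain of the receptor, was lower than in naive cells by a log2 difference of -2.84 in PD-1hi, -2.97 in PD-1int and -2.81 in memory cells. Irf1, a transcription factor that interferon gamma induces, averaged 9.95 ± 0.20 in PD-1hi, 9.93 ± 0.06 in PD-1int, 9.19 ± 0.13 in memory and 9.86 ± 0.13 in naive arrays (log2, SD, n = 4 each). As with Psmb9, its memory arrays lay below the other 12. Irf1 fell by 0.67 ± 0.10 in memory against naive cells (adjusted p = 0.00013) and was higher by 0.76 in PD-1hi and by 0.74 in PD-1int against memory cells.

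**Figure D3:**
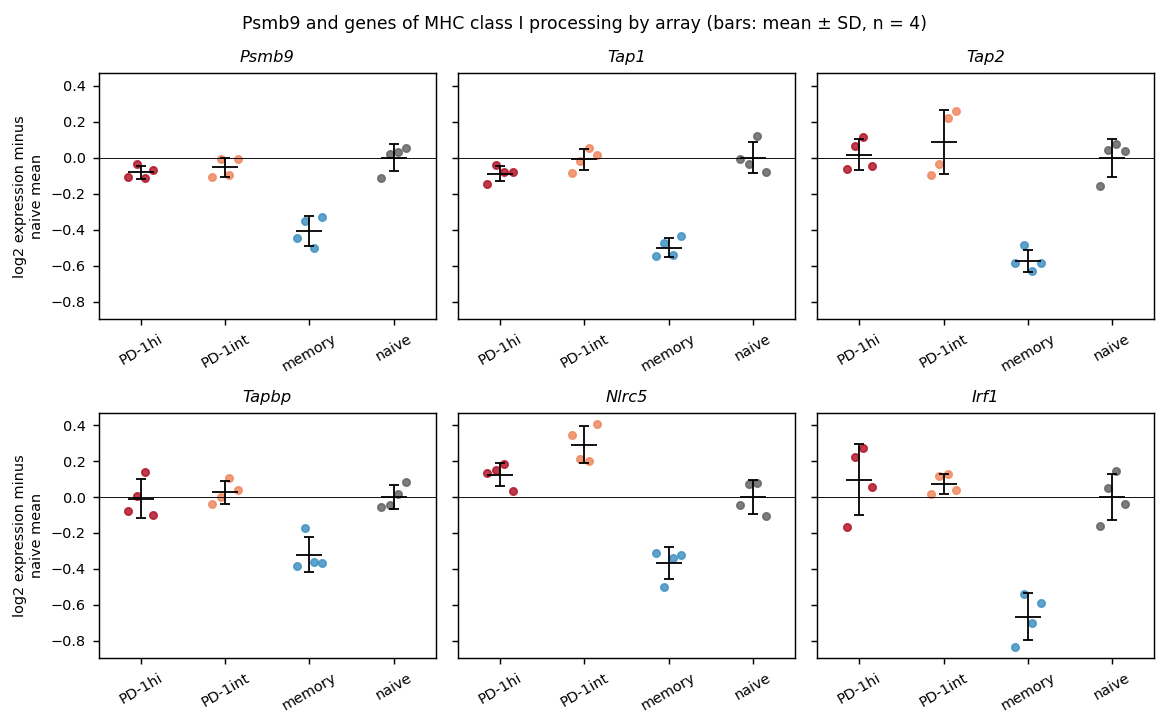
Log2 expression minus the gene's naive mean (y axis) is drawn per array for Psmb9, Tap1, Tap2, Tapbp, Nlrc5 and Irf1 in PD-1hi, PD-1int, memory and naive cells, with bars for mean ± SD (n = 4). In each panel the memory arrays form the lowest group, at means from -0.32 for Tapbp to -0.67 for Irf1.

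PA28 did not follow the catalytic subunits. Psme1, its alpha subunit, read 9.87, 9.98, 9.97 and 10.07 in PD-1hi, 10.12, 10.05, 10.10 and 9.96 in PD-1int, 10.02, 10.11, 10.09 and 10.10 in memory and 10.03, 10.10, 10.08 and 10.10 in naive arrays. Psme2, its beta subunit, read 8.19, 8.47, 8.03 and 8.26 in PD-1hi, 8.50, 8.50, 8.27 and 8.19 in PD-1int, 8.42, 8.18, 8.35 and 8.38 in memory and 8.20, 8.33, 8.39 and 8.16 in naive arrays. Every pair of subsets overlapped for both genes. Neither passed the test in any of the 6 comparisons. The largest differences were -0.11 ± 0.07 for Psme1 in PD-1hi against memory cells (adjusted p = 0.313) and -0.13 ± 0.10 for Psme2 in PD-1hi against PD-1int cells (adjusted p = 0.651).

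All 3 constitutive catalytic subunits rose in both effector subsets against naive cells, and Psmb5 and Psmb6 in memory cells. Psmb5, the chymotrypsin-like subunit that Psmb8 replaces, read 11.97, 11.79, 11.78 and 11.93 in PD-1hi, 11.82, 11.78, 11.75 and 11.80 in PD-1int, 11.73, 11.79, 11.66 and 11.72 in memory and 11.37, 11.26, 11.28 and 11.38 in naive arrays. All naive arrays lay below all others, which overlapped. Psmb5 rose by 0.55 ± 0.07 in PD-1hi (1.46-fold, adjusted p = 4.51e-06), by 0.47 ± 0.07 in PD-1int (adjusted p = 3.84e-05) and by 0.40 ± 0.07 in memory against naive cells (adjusted p = 0.00047).

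Psmb6, the caspase-like subunit that Psmb9 replaces, read 10.27, 10.12, 10.29 and 10.14 in PD-1hi, 10.23, 10.16, 10.27 and 10.19 in PD-1int, 10.09, 10.15, 10.01 and 10.18 in memory and 9.80, 9.82, 9.84 and 9.90 in naive arrays. Here too the naive arrays stood apart below the rest. The rise was 0.37 ± 0.07 in PD-1hi and 0.37 ± 0.07 in PD-1int cells (adjusted p = 0.000369 and 0.000412) and 0.26 ± 0.07 in memory cells (adjusted p = 0.0146, or 0.052 without memory 4). Psmb7, the trypsin-like subunit that Psmb10 replaces, read 10.88, 10.51, 10.65 and 10.87 in PD-1hi, 10.69, 10.56, 10.78 and 10.76 in PD-1int, 10.49, 10.39, 10.36 and 10.47 in memory and 10.27, 10.17, 10.07 and 10.35 in naive arrays. Its effector arrays lay above all memory arrays, and the lowest memory array lay just above the highest naive one. It rose by 0.51 ± 0.09 in PD-1hi and by 0.48 ± 0.09 in PD-1int against naive cells (adjusted p = 0.000272 and 0.000639), while the memory difference of 0.21 ± 0.09 did not pass (adjusted p = 0.179). In PD-1hi against memory cells Psmb7 was higher by 0.30 ± 0.09 (adjusted p = 0.0239), a call lost without memory 2, memory 3, PD-1hi 1 or PD-1hi 4 (up to 0.0857).

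Each immunoproteasome subunit was then set against the subunit it replaces, as the difference of the log2 values on the same array. This asks whether the genes of a pair changed unequally, and says nothing of which is more abundant. None of the 18 comparisons passed after adjustment: with 4 arrays a side, the exact permutation test (two-sided) cannot give a p below 0.0286, and the smallest adjusted p was 0.0571. The Psmb8 minus Psmb5 difference was lower on every array of the other subsets than on any naive array, by -0.30 ± 0.08 in PD-1hi, -0.22 ± 0.07 in PD-1int and -0.37 ± 0.07 in memory cells (SE, p = 0.0286 and adjusted p = 0.0571 each, exact permutation test). On PD-1int arrays it was higher than on all memory arrays, by 0.15 ± 0.02 (exact p = 0.0286, adjusted 0.0571).

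The Psmb9 minus Psmb6 difference showed the widest separation of the pairs. Against naive arrays it was -0.45 ± 0.07 in PD-1hi, -0.43 ± 0.05 in PD-1int and -0.67 ± 0.03 in memory cells, without overlap, and against memory arrays it was 0.23 ± 0.06 in PD-1hi and 0.24 ± 0.05 in PD-1int cells, again without overlap (exact p = 0.0286 and adjusted p = 0.0571 for each). PD-1hi and PD-1int arrays overlapped, with a difference of -0.02 ± 0.08 (exact p = 0.686). For Psmb10 minus Psmb7 the arrays of every pair of subsets overlapped. Its differences from naive were -0.25 ± 0.12 in PD-1hi, -0.19 ± 0.08 in PD-1int and -0.09 ± 0.08 in memory cells (adjusted p = 0.184, 0.0935 and 0.418, exact permutation test).

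**Figure D4:**
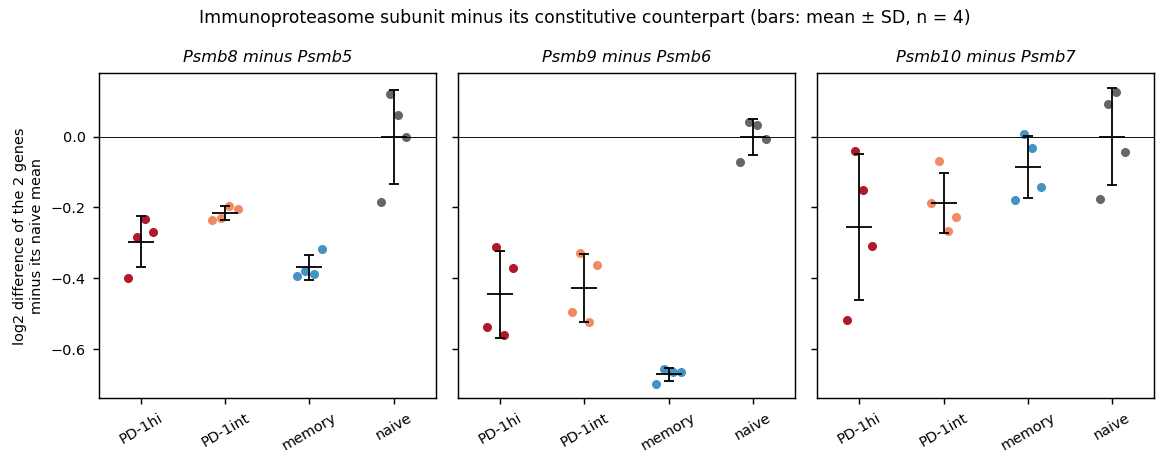
The log2 difference of each immunoproteasome subunit and the subunit it replaces, relative to its naive mean (y axis), is drawn per array in PD-1hi, PD-1int, memory and naive cells, with bars for mean ± SD (n = 4). The memory arrays of Psmb9 minus Psmb6 sit together at a mean of -0.67, below the effector arrays at -0.45 and -0.43.

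In the rest of the 20S core, the structural beta subunits rose together and the alpha ring unevenly. Of the 4 structural beta genes (Psmb1, Psmb2, Psmb3 and Psmb4), all rose in PD-1hi against naive cells (median log2 difference 0.40), all but Psmb1 rose in PD-1int cells (median 0.36), and only Psmb2 was called in memory cells (by 0.35). The Psmb1 call in PD-1hi cells (0.21, adjusted p = 0.0326) was lost without naive 2, naive 3, PD-1hi 1 or PD-1hi 4 (up to 0.0924). Psmb4 was higher than in memory cells by 0.25 ± 0.07 in PD-1hi (adjusted p = 0.00856) and by 0.23 ± 0.07 in PD-1int cells (adjusted p = 0.0247, lost without memory 1, memory 3, PD-1int 3 or PD-1int 4, up to 0.0803).

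Of 6 alpha-ring genes measured, 4 rose in PD-1hi against naive cells (Psma1, Psma2, Psma3 and Psma7), 2 in PD-1int (Psma1 and Psma2) and 1 in memory cells (Psma1). Psma1 read 11.90, 11.71, 11.78 and 11.83 in PD-1hi, 11.63, 11.63, 11.71 and 11.53 in PD-1int, 11.35, 11.34, 11.19 and 11.43 in memory and 10.95, 11.11, 11.08 and 11.03 in naive arrays. Memory arrays lay above all naive arrays, effector arrays lay above all memory arrays, and PD-1hi and PD-1int arrays overlapped slightly. Its rise was 0.76 ± 0.07 in PD-1hi (1.70-fold, adjusted p = 2.26e-07), 0.58 ± 0.07 in PD-1int (adjusted p = 8.84e-06) and 0.28 ± 0.07 in memory against naive cells (adjusted p = 0.0163, lost at 0.0539 without naive 1 and at 0.061 without memory 4). Psma1 was also higher than in memory cells, by 0.48 in PD-1hi and by 0.30 in PD-1int cells (adjusted p = 8.33e-05 and 0.00812). The smaller calls of Psma3 and Psma7 in PD-1hi against naive cells (0.18 and 0.21) were lost without naive 1, naive 3 or PD-1hi 4, and that of Psma3 also without naive 4, PD-1hi 1 or PD-1hi 3 (adjusted p up to 0.124). Psma5 stood apart: its brighter probe set averaged 5.45 in PD-1hi, 5.23 in PD-1int, 5.65 in memory and 5.45 in naive arrays, below the array medians, and it did not pass in any comparison.

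The 19S cap genes rose in nearly equal number in PD-1hi and PD-1int cells. Of the 6 ATPases, 5 rose in PD-1hi (all but Psmc5), 5 in PD-1int (all but Psmc3) and 4 in memory against naive cells (Psmc1, Psmc2, Psmc4 and Psmc5), with medians of 0.37, 0.41 and 0.29. Psmc2 rose by 0.59 ± 0.07 in PD-1hi, 0.51 ± 0.07 in PD-1int and 0.33 ± 0.07 in memory against naive cells (adjusted p = 5.88e-06, 4.32e-05 and 0.00582). It has a second, dimmer probe set, at 8.19 in PD-1hi, 7.77 in PD-1int, 7.86 in memory and 7.43 in naive arrays on average; with the mean of both, the PD-1hi call against naive cells remained, but those in PD-1int and memory cells were lost (adjusted p = 0.135 and 0.268). Psmc4 rose by 0.54, 0.48 and 0.36 ± 0.07 (adjusted p = 1.3e-05, 7.58e-05 and 0.0025) in PD-1hi, PD-1int and memory against naive cells. Psmc1 rose by 0.54 ± 0.07 in PD-1int against naive and by 0.28 ± 0.07 in PD-1int against memory cells (adjusted p = 2.37e-05 and 0.0139, the second at 0.0562 without PD-1int 2). The memory calls of Psmc1 and Psmc5 against naive cells (0.26 and 0.35) were lost without naive 2, naive 3 or memory 1, and that of Psmc1 also without memory 2 or memory 4 (adjusted p up to 0.0934 and 0.0744). Psmc2 was higher by 0.26 in PD-1hi against memory cells (adjusted p = 0.0167, lost at 0.0632 without memory 3, at 0.0603 without PD-1hi 4 and at 0.348 with the mean of both probe sets).

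Of the 11 non-ATPase genes of the cap, 8 rose in PD-1hi, 8 in PD-1int and 7 in memory against naive cells, and none fell, with medians of 0.39, 0.30 and 0.27. Psmd8, a lid subunit, read 11.25, 11.08, 11.17 and 11.32 in PD-1hi, 10.97, 11.07, 11.20 and 11.04 in PD-1int, 10.97, 10.96, 10.75 and 10.92 in memory and 10.28, 10.46, 10.14 and 10.89 in naive arrays. Naive 4 lay within the memory range and the other naive arrays well below it. Psmd8 rose by 0.76 ± 0.12 in PD-1hi, 0.63 ± 0.12 in PD-1int and 0.45 ± 0.12 in memory cells (adjusted p = 7.73e-05, 0.000763 and 0.0188), and the memory call was lost without naive 1, naive 3, memory 1 or memory 2 (up to 0.076).

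Psmd1, the scaffold subunit of the cap's base, read 9.51, 9.33, 9.51 and 9.74 in PD-1hi, 9.25, 9.46, 9.26 and 9.31 in PD-1int, 9.14, 9.14, 9.15 and 9.24 in memory and 9.04, 8.55, 8.71 and 8.79 in naive arrays. All naive arrays lay below all memory arrays, and all memory arrays below all effector arrays. The rise was 0.75 ± 0.10 in PD-1hi, 0.55 ± 0.10 in PD-1int and 0.39 ± 0.10 in memory against naive cells (adjusted p = 1.09e-05, 0.000447 and 0.0136, the last at 0.0534 without naive 2), and 0.36 ± 0.10 in PD-1hi against memory cells (adjusted p = 0.0139, or 0.0589 without PD-1hi 4). Psmd13, a lid subunit, rose by 0.64 ± 0.09 in PD-1int against naive cells (adjusted p = 4.65e-05) and by 0.29 ± 0.09 against memory cells (adjusted p = 0.0397, lost without memory 1, memory 2, memory 3, PD-1int 3 or PD-1int 4, up to 0.144). Psmd14, the deubiquitinase of the lid, was higher by 0.28 ± 0.09 in PD-1hi against memory cells (adjusted p = 0.0319, lost without memory 1, memory 2, PD-1hi 1, PD-1hi 3 or PD-1hi 4, up to 0.119).

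Among the chaperones that assemble the alpha ring, Psmg1 was lower in PD-1hi cells than in naive and memory cells, and Psmg2 lower than in memory cells. The products of Psmg1 to Psmg4 guide the alpha ring together. Psmg1 read 8.33, 8.50, 8.17 and 7.72 in PD-1hi, 8.97, 8.69, 8.48 and 8.60 in PD-1int, 9.43, 9.27, 9.30 and 9.39 in memory and 8.99, 8.81, 8.90 and 8.99 in naive arrays. Memory arrays were the highest and PD-1hi arrays lay below all naive arrays, while PD-1int arrays overlapped PD-1hi and naive ones. Psmg1 fell by 0.74 ± 0.13 in PD-1hi against naive cells (0.597-fold, adjusted p = 0.000243), by 1.17 ± 0.13 in PD-1hi against memory cells (0.445-fold, adjusted p = 2.48e-06) and by 0.66 ± 0.13 in PD-1int against memory cells (adjusted p = 0.00156). These 3 calls held whichever array was left out.

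Psmg1 was also the only one of the 49 genes called between PD-1hi and PD-1int cells, where it fell by 0.51 ± 0.13 (adjusted p = 0.0438). That call was lost without PD-1int 1, PD-1int 2, PD-1int 4, PD-1hi 1, PD-1hi 3 or PD-1hi 4 (adjusted p up to 0.157), in a fit of those 8 arrays alone (0.162) and after quantile normalization (0.0662). The rise of Psmg1 in memory against naive cells (0.42 ± 0.13, adjusted p = 0.0458) was lost in each of the 8 fits that left out an array, with adjusted p from 0.0608 without naive 4 to 0.117 without naive 2 or memory 1.

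Psmg2, the partner of Psmg1, read 9.13, 8.69, 8.80 and 8.82 in PD-1hi, 9.15, 8.89, 9.12 and 9.0 in PD-1int, 9.51, 9.16, 9.30 and 9.34 in memory and 9.26, 8.80, 8.90 and 8.63 in naive arrays. It fell by 0.47 ± 0.12 in PD-1hi against memory cells (adjusted p = 0.00885), without overlap. Its rise of 0.43 ± 0.12 in memory against naive cells (adjusted p = 0.0302) was lost without naive 2, naive 3, naive 4, memory 1, memory 3 or memory 4 (up to 0.106). Psmg3 and Psmg4 did not pass in any comparison; their differences in PD-1hi against memory cells were -0.11 ± 0.10 and -0.27 ± 0.11 (adjusted p = 0.53 and 0.079). Over the 4 genes the median log2 difference was -0.09 in PD-1hi, 0.02 in PD-1int and 0.34 in memory against naive cells, and -0.37 in PD-1hi and -0.25 in PD-1int against memory cells.

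**Figure D5:**
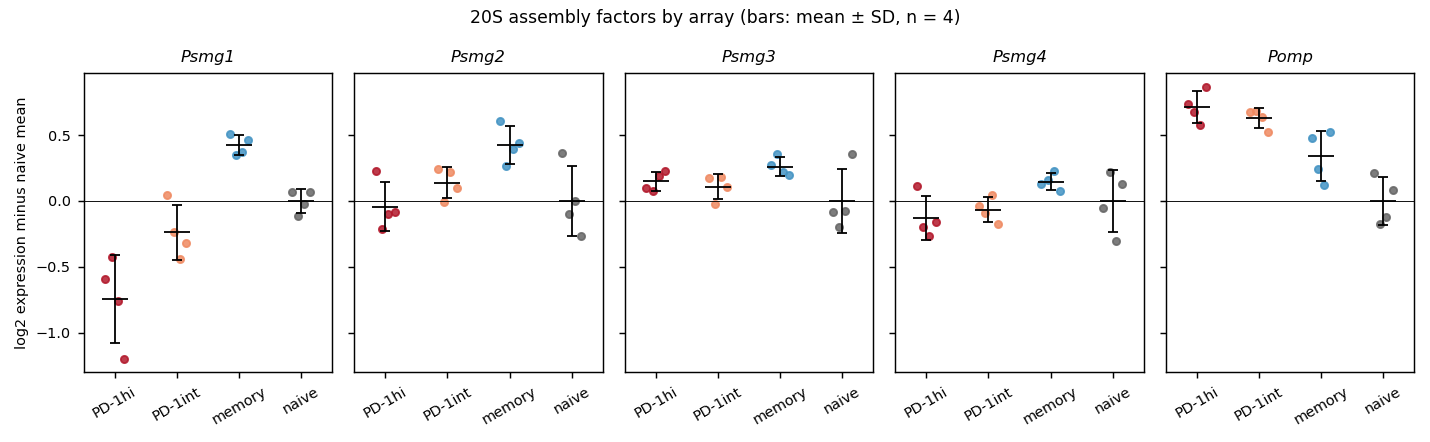
Log2 expression minus the gene's naive mean (y axis) is drawn per array for Psmg1, Psmg2, Psmg3, Psmg4 and Pomp in PD-1hi, PD-1int, memory and naive cells, with bars for mean ± SD (n = 4). Psmg1 has a mean of -0.74 in PD-1hi and of 0.42 in memory cells, while Pomp is highest in PD-1hi cells, at 0.72.

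Pomp, which is outside the Psm names, assembles the beta ring, with preference for immunoproteasome subunits. It read 11.19, 11.13, 11.03 and 11.32 in PD-1hi, 11.13, 11.13, 11.09 and 10.97 in PD-1int, 10.93, 10.69, 10.57 and 10.98 in memory and 10.66, 10.27, 10.33 and 10.54 in naive arrays. Effector arrays lay above all naive arrays, and memory arrays overlapped naive ones. It rose by 0.72 ± 0.10 in PD-1hi, 0.63 ± 0.10 in PD-1int and 0.34 ± 0.10 in memory against naive cells (adjusted p = 2.9e-05, 0.00016 and 0.04).

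Of 14 such partners measured, 4 rose and 1 fell in PD-1hi, 3 rose and 1 fell in PD-1int, and 3 rose and 0 fell in memory against naive cells. Of all genes, 27.1%, 22.7% and 11.7% changed in those comparisons, and the list as a whole was not tested. Sem1, a small lid subunit, rose by 0.37, 0.34 and 0.32 ± 0.08 in PD-1hi, PD-1int and memory cells (adjusted p = 0.00134, 0.00282 and 0.00921). Vcp, the segregase that hands over ubiquitinated proteins, rose by 0.43 ± 0.08 in PD-1hi and by 0.30 ± 0.08 in PD-1int cells (adjusted p = 0.000556 and 0.0127). Uchl5, a deubiquitinase of the cap, rose by 0.43 ± 0.12 in PD-1hi and by 0.40 ± 0.12 in memory cells (adjusted p = 0.00961 and 0.0339). The fall was that of Nfe2l2, the stress factor NRF2, by 1.02 ± 0.14 in PD-1hi and by 0.57 ± 0.14 in PD-1int cells (adjusted p = 1.82e-05 and 0.00621). Nfe2l1, the related factor that drives proteasome genes when the proteasome is inhibited, did not pass in any comparison and differed from naive cells by 0.14 ± 0.08 in PD-1hi, 0.16 ± 0.08 in PD-1int and -0.06 ± 0.08 in memory cells (adjusted p = 0.256, 0.177 and 0.759).

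Few calls were made among the remaining members. Of the 3 chaperones of the cap, Psmd9 and Psmd10 rose in PD-1hi (0.24 and 0.44) and Psmd9 in PD-1int cells against naive cells (0.29), and Psmd5 passed in no comparison. The 2 calls in PD-1hi cells were lost without naive 2, PD-1hi 3 or PD-1hi 4, that of Psmd9 also without naive 3 and that of Psmd10 also without naive 4 or PD-1hi 1 (adjusted p up to 0.136 and 0.163). Of the other activators and the regulator PI31 (Psme3, Psme4 and Psmf1), Psme3, the nuclear PA28 subunit, fell by 0.25 ± 0.07 in PD-1int against memory cells (adjusted p = 0.0269, lost without memory 1, memory 2, memory 4, PD-1int 3 or PD-1int 4, up to 0.097), and no other call was made. Psma8, a testis subunit, and Psmb11, the subunit of thymic cortical epithelium, averaged 5.42 to 6.09 in the subsets, below the array medians, and passed in no comparison.

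Psmc3ip, which is no proteasome gene, had the largest rise of the 49 in PD-1hi against naive cells, 0.99 ± 0.16 (1.99-fold, adjusted p = 9.39e-05). It also rose by 0.65 ± 0.16 in PD-1int against naive and by 0.59 ± 0.16 in PD-1hi against memory cells (adjusted p = 0.00553 and 0.0109). Psme3ip1 passed in no comparison. Without these genes, 28 of 47 proteasome genes rose in PD-1hi, 24 in PD-1int and 17 in memory against naive cells.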

How the data were processed

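RNA of 16 samples was measured on Affymetrix Mouse Gene ST arrays after extraction with an RNeasy Micro kit and labelling with a WT Pico kit, per the labels' protocols. The submitters' processing notes name Affymetrix Power Tools; its version, how probes were summarised and which annotation release was used were not given in the sources used here. Deposited values are log2 expression per probe set; the base was read from their range. No detection call or background level comes with them, so the part of background in dim values could not be assessed, and the number of arrays limits the precision. Of 41345 probe sets, 23521 had 1 symbol in the platform annotation, 1814 several and 16010 none. Entrez identifiers matched RefSeq for 23328, with 0 symbols changed. For 1082 genes with several probe sets, the brightest was used. No dim gene was left out.

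All 16 arrays were fitted with limma (3.58.1, R 4.3.3), with a mean per subset, lmFit and eBayes. The 6 pairs of subsets were compared, two-sided, with Benjamini-Hochberg adjustment over all 22180 genes of a comparison. Gene pairs were compared by exact two-sided permutation tests, adjusted over the 18 tests. Members and gene lists were chosen with earlier results of these data known. Named are the immunoproteasome and catalytic genes, up to 5 further members with the largest rise and fall per comparison, and up to 4 genes per list with the smallest adjusted p; other members were named after their values were seen. The pipeline was tested on simulated data. Alternatives were a replicate block, a fit of the 8 arrays compared, no genes among the 40% dimmest, the mean of probe sets, median centring, quantile normalization, array weights, a robust eBayes with a trend, omission of each array and, added after seeing the data, omission of the 4 arrays numbered 4. Protein sequences were not analysed here.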

Additional observations from a re-analysis of the deposited data

Results flagged for a closer look

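Among the 196 sets of 4 arrays (49 genes in 4 subsets), 10 held 1 array far from the other 3 by Dixon's test, about the 5% that chance gives. Psmb8 was lowest in naive 1, at 10.46. Psmc2 and Psmc3ip were lowest in naive 2, at 9.07 and 6.22. Psmd11 was lowest in naive 3, at 10.40, and Psme3ip1 in naive 4, at 10.76. Psma7 was highest in PD-1hi 4, at 11.63, and Psmd13 in PD-1hi 1, at 9.31, while Psmd7 was lowest in PD-1hi 2, at 9.96. Psmd3 was highest in PD-1int 3, at 9.89, and Psmd1 in memory 4, at 9.24. The cause of these values was not tested.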

How the results depend on the processing

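No called difference reversed under any alternative named above. The call between PD-1hi and PD-1int cells (Psmg1) was lost in a fit of the 8 arrays compared and after quantile normalization, which left 0 changed members each. When each array was left out in turn, the number of changed members was 25 to 31 in PD-1hi against naive, 23 to 27 in PD-1int against naive, 9 to 21 in memory against naive, 0 to 1 in PD-1hi against PD-1int, 6 to 15 in PD-1hi against memory and 4 to 8 in PD-1int against memory cells; the single arrays are named beside those counts. Under the other alternatives, except omission of the 4 arrays numbered 4 (given last), the counts stayed within 1.5 times those reported. Among named members, calls were lost in the fit of 8 arrays for Psma3, Psma7, Psmb1, Psmd9 and Psmd10 in PD-1hi against naive cells (adjusted p = 0.125, 0.0912, 0.0899, 0.0954 and 0.0542), for Psmb8 and Psmd14 in PD-1hi and Psmb4 and Psmd13 in PD-1int against memory cells (adjusted p = 0.0588, 0.0642, 0.0502 and 0.0596) and for Psmd8, Psmg2, Psmc1 and Psmd13 in memory against naive cells (0.0664, 0.06, 0.0652 and 0.0501). Quantile normalization ended those of Psma3 and Psma7 in PD-1hi against naive cells (0.0585 and 0.0773), of Psmb8 and Psmd13 in PD-1int and of Psmd14 in PD-1hi against memory cells (0.0619, 0.0635 and 0.0511). Median centring ended those of Psma3, Psma7, Psmb1, Psmd9 and Psmd10 in PD-1hi against naive cells (0.0623, 0.0544, 0.0567, 0.0729 and 0.0714), of Psmc1 in PD-1hi against memory (0.0632), of Psmd13 in PD-1int against memory and of Psmg1 and Psmc1 in memory against naive cells (0.052, 0.0625 and 0.0666), and the mean of probe sets that of Psmg2 in memory against naive cells (0.0748). A robust eBayes with a trend ended that of Psmd9 in PD-1hi against naive cells (0.0654). With the replicate number as a block, the calls of Psma3, Psmb1 and Psmd10 in PD-1hi against naive (0.0682, 0.0512 and 0.0542), of Psmc1 in PD-1hi against memory (0.059) and of Psmc1 in memory against naive cells (0.0512) were lost, and the counts were 27, 25 and 16 against naive cells (PD-1hi, PD-1int and memory), 1 between the effector subsets, and 13 and 11 against memory cells (PD-1hi and PD-1int). The titles give the 4 subsets the same numbers, and no label says what a number marks. Same-numbered arrays of different subsets correlated at -0.048 to 0.151 in their deviations, 2 of 24 pairs above 0.1. Of the 24 pairs, 13 correlated best with their own number. Each array was set against 4 numbers, 1 of them its own, so unlinked numbers would give about 1 in 4, a smaller share. The pairs share arrays, and no test was made of this count. The arrays numbered 4 also had the highest mean of B-cell and CLL markers in each subset. Whether a number marks a shared origin was not tested, and the main fit took the arrays as unpaired. For the gene pairs the block gives the same difference, and 4 pairs cannot reach a p below 0.125. Fewer tested genes, without the 40% dimmest (Psma5, Psma8 and Psmb11 among the members), gained calls and lost none that had been made. Without the 4 arrays numbered 4 (12 arrays, chosen after seeing the data), the counts were 11 in memory against naive, 5 in PD-1hi and 4 in PD-1int against memory cells and 0 between the effector subsets; among the lost calls were Psma1, Psmb6, Psmd1 and Psmg2 in memory against naive (0.115, 0.0676, 0.0653 and 0.216) and Psmb7, Psmb8, Psmc2, Psmd1 and Psmc3ip in PD-1hi against memory cells (0.11, 0.116, 0.0935, 0.0928 and 0.0937). The cause of the lost calls was not tested. The scale carries no measure of signal over background, so small differences of dim members could not be assessed.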
